A study of Mus musculus with 3 samples.

Results

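Lipid-associated macrophage genes were followed across the liver cells of 3 Drop-seq libraries, a single-cell method in which each messenger RNA is counted once by its unique molecular identifier (UMI). The 7 genes were chosen by their symbols, *Gpnmb*, *Trem2*, *Lpl*, *Fabp5*, *Cd9*, *Lgals3* and *Plin2*, and all 7 were present among the 19091 genes of the count matrices. Their UMIs were summed over barcodes with at least 200 detected genes, called cells here, by library and by cell class.

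The livers came from adult C57BL/6 mice. The library labelled control came from sham-operated animals killed 1 day later, and per the study's methods from an uninjured area. The libraries labelled IRE 1 day and IRE 7 days came from livers given irreversible electroporation, in which short electric pulses between a pair of plate electrodes kill the hepatocytes of 1 lobe, and taken 1 day or 7 days after it. Each library pooled tissue punches of 3 livers and was the sole library of its group, so differences between libraries have no replicate check, no test was run, and every interval below is an exact 95% interval for counting error only.

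Lipid-associated macrophages appear where tissue macrophages clear fat-laden or dying cells, as in obese fat, fatty liver and healing tissue. The receptor Trem2 binds lipids and lipoproteins and signals through the adaptor Tyrobp. Fatty acids are freed from lipoproteins by lipoprotein lipase (Lpl) and carried in the cytosol by fatty acid binding protein 5 (Fabp5). Lipids are stored in droplets coated by perilipin 2 (Plin2), while the lysosomal and surface glycoprotein Gpnmb, the tetraspanin Cd9 and galectin-3 (Lgals3) mark the same cells.

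Promoter sequences are shown for *Gpnmb* and *Trem2*, whose levels went together over the cell classes, and for *Plin2*, which was high in other classes. They are RefSeq windows of GRCm38.p6 from 150 bases before to 30 bases from the transcription start, where the start base counts as 1. Capitals mark a match, on either strand, to the E-box CACGTG, the M-box CATGTG or the AP-1 motif TGAGTCA, motifs bound by basic helix-loop-helix factors and AP-1 factors. *Gpnmb* (chr6:49036368-49036547, plus strand) held an AP-1 match from base 9, *Plin2* (chr4:86670030-86670209, minus strand) an E-box from base -4, and *Trem2* (chr17:48346251-48346430, plus strand) none of these letters.
Gpnmb: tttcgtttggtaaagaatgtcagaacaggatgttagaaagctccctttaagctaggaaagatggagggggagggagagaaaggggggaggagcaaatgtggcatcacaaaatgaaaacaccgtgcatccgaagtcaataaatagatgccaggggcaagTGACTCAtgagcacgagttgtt
Trem2: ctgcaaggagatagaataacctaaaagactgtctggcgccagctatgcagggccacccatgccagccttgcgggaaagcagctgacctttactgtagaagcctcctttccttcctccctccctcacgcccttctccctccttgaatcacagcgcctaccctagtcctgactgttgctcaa
Plin2: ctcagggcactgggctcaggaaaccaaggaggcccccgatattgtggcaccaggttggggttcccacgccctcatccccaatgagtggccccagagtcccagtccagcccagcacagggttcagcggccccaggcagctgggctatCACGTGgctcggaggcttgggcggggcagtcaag
Over 32851 windows of this length, 5.09% held the E-box, 8.44% the M-box and 3.33% the AP-1 motif, so each match is a description of letters and not a site. *Cd9* had an M-box match from base -38, *Lgals3* had no match, and *Lpl* and *Fabp5* were not among the promoter entries.

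The libraries held 10386 cells labelled control, 9253 labelled IRE 1 day and 5624 labelled IRE 7 days, with medians of 595, 509 and 456.5 UMIs per cell. Mitochondrial transcripts made up 20.5%, 21.7% and 4.10% of their UMIs. Hepatocyte markers took 0.216%, 3.74% and 0.0462% of UMIs in the order control, IRE 1 day and IRE 7 days, Kupffer cell markers 0.305%, 0.501% and 0.0849%, endothelial markers 0.219%, 0.599% and 0.0387%, mesenchymal markers 0.251%, 0.0131% and 0.0413%, and neutrophil markers 0.419%, 0.0738% and 4.35%. The library labelled control thus held less hepatocyte, Kupffer and endothelial marker RNA than the library labelled IRE 1 day, and the libraries are called by their labels throughout. Control, 1 day and 7 days stand below for the libraries so labelled, and the direction of every ratio to control rests on a label that the marker levels did not check. Between 44 and 149 cell barcodes were shared by a pair of libraries.

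Over whole libraries the members did not move as 1 group. *Gpnmb*, *Trem2* and *Lpl* were highest in the library labelled control, and *Cd9*, *Lgals3* and *Plin2* in the library labelled IRE 7 days. *Fabp5* was also highest at 7 days, by a smaller ratio of 1.39 to control. The library labelled IRE 1 day was lowest for 6 members and held almost no *Gpnmb*. In whole libraries, fewer cells of a type and less RNA per cell cannot be told apart, and levels of different genes are not ranked against each other because they are not per length.

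Of the surface molecules, *Gpnmb* stood at 439 UMIs per 1000000 UMIs of the library, written CPM here (95% interval 424 to 453) in the library labelled control, 3.11 (1.87 to 4.86) in that labelled IRE 1 day and 125 (113 to 138) in that labelled IRE 7 days. The 1-day value rested on 19 UMIs in 14 of 9253 cells and was 141-fold lower than control (90.2 to 234). *Trem2* followed the same order, at 209, 12.8 and 107 CPM, or 16.4-fold lower at 1 day (13.1 to 20.8) and 1.96-fold lower at 7 days (1.74 to 2.21). Cd9, a tetraspanin that organises membrane receptors, ran differently. It stood at 111 and 74.5 CPM in the libraries labelled control and IRE 1 day and at 762 in that labelled IRE 7 days, 6.85-fold above control (6.33 to 7.40).

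Of the lipid-handling members, *Lpl*, the secreted lipase that frees fatty acids from lipoproteins, stood at 720, 258 and 205 CPM in the order control, IRE 1 day and IRE 7 days. It was the sole member lower at 7 days than at 1 day, by 0.34 on the log2 scale, and over barcodes of at least 500 genes that log2 ratio turned to 0.27. *Fabp5* stood at 400, 165 and 558 CPM, so that the library labelled IRE 7 days was 1.39-fold above control (1.31 to 1.48). *Plin2*, the droplet coat protein, stood at 312, 156 and 1357 CPM. Its 1-day level was 2.00-fold below control, just short of 2-fold at 3 significant digits and beyond 2-fold in 4 of the alternative settings, and its 7-day level was the highest of the 3.

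*Lgals3*, which encodes a sugar-binding lectin that coats damaged lysosomes and cell surfaces, was counted in 29.3% of cells labelled control, 11.3% of cells labelled IRE 1 day and 67.8% of cells labelled IRE 7 days. Its level was 1079 CPM in the library labelled control (1057 to 1102), 227 in that labelled IRE 1 day (215 to 239) and 3622 in that labelled IRE 7 days (3555 to 3690). At 7 days it was the 18th most counted gene of that library.

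**Figure D1:**
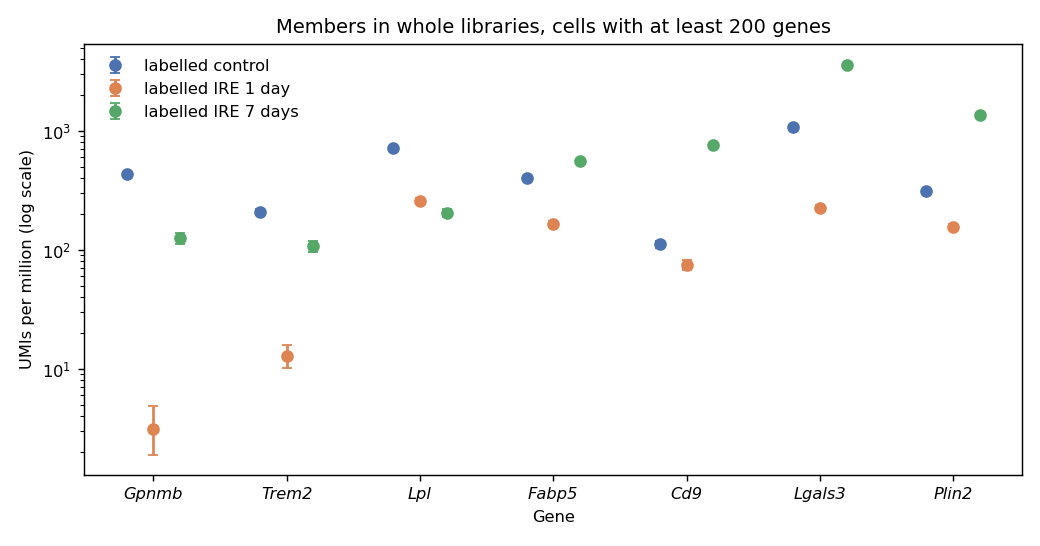
CPM of each of the 7 genes (log axis) in the 3 libraries, 1 point per library over cells with at least 200 genes, with exact 95% intervals for counting error. The library labelled control is highest for *Gpnmb*, *Trem2* and *Lpl*, and that labelled IRE 7 days is highest for the other members, *Lgals3* reaching 3622.

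Members were counted as past 2-fold where at least 20 UMIs lay in both libraries together. At 1 day against control, 5 members were at least 2-fold lower, where 7.14% of the 12988 genes tested were, and 0 were higher, where 13.6% of genes were. At 7 days against control, 3 members were higher (*Cd9*, *Lgals3*, *Plin2*) beside 8.79% of genes, and 2 were lower (*Gpnmb*, *Lpl*) beside 26.3% of genes, with *Trem2* just outside. At 7 days against 1 day, 6 members were higher beside 11.3% of genes and 0 were lower beside 31.8%. The median log2 ratio of the members was -1.48 at 1 day against control and 0.48 at 7 days against control, against 0.05 and -0.29 over all tested genes. These comparisons share libraries, the control or the 1-day one, so they are not independent of each other.

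To ask which cells carried the transcripts, each cell was assigned to 1 of 15 marker-gated classes, none of whose markers is a member. A class was given where at least 2 of its markers were seen and their UMIs exceeded what free RNA would give. The 3 macrophage gates were Kupffer cells, the resident macrophages of the sinusoids (*Clec4f*, *Vsig4*, *Timd4* and others), C1q macrophages, which passed on markers such as *C1qa*, *Csf1r* and *Ms4a7* and did not pass on Kupffer markers, and Arg1/Ccl2 myeloid cells (*Arg1*, *Ccl2*, *Ccl7*, *Thbs1*, *Inhba*). They held 1388, 971 and 54 cells in the library labelled control, 1309, 377 and 19 in that labelled IRE 1 day, and 189, 253 and 927 in that labelled IRE 7 days. The make-up of the macrophage-gated cells therefore differed between libraries, and Kupffer cells were the largest gate of the 3 at 1 day while Arg1/Ccl2 cells were at 7 days.

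Among cells labelled control, *Gpnmb*, *Trem2* and *Fabp5* were high in C1q macrophages and low in Kupffer cells. *Gpnmb* stood at 1518 CPM in C1q-gated cells and 116 in Kupffer-gated cells, a 13.1-fold difference (11.2 to 15.6). *Fabp5* stood at 1404 and 96.2, 14.6-fold apart (12.2 to 17.6), and *Trem2* at 777 and 99.8, 7.78-fold apart (6.48 to 9.40). The remaining members differed less. *Cd9* was 5.41-fold, *Lgals3* 4.01-fold and *Plin2* 3.71-fold higher in C1q-gated cells, and *Lpl* only 1.88-fold (1.74 to 2.02), at 1771 against 943 CPM. The C1q gate held 11.4% of the cell UMIs of that library and 39.5% of its *Gpnmb*, 42.3% of its *Trem2* and 40.0% of its *Fabp5* UMIs.

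The 54 Arg1/Ccl2 cells of the library labelled control had still higher levels, which were the highest of the 15 gates compared for 6 of 7 members, *Trem2* being highest in the C1q gate. These levels rested on few cells, since 3 cells held 217 of their 246 *Gpnmb* UMIs and 3 held 134 of their 158 *Fabp5* UMIs, and a single barcode of 12726 UMIs held 158 of the *Gpnmb* UMIs. With that barcode left out *Gpnmb* stood at 1464 CPM (1174 to 1804) in place of 3377, an interval that holds the C1q gate's level. *Lpl* then stood at 1464 in place of 2032, so that both lay below their C1q level and were no longer highest in the Arg1/Ccl2 gate. *Fabp5* stood at 1630 in place of 2169, and *Lgals3* at 3444 (2990 to 3946) against 2882 in the C1q gate.

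Every member was thus highest in a macrophage gate of that library, but some passed the Kupffer level elsewhere. For *Cd9* the order was not resolved. It stood at 330 CPM in Arg1/Ccl2 cells (211 to 490) on 24 UMIs, and the cholangiocyte interval was 176 to 469 on 18 UMIs. *Cd9* stood at 297 CPM in cholangiocytes against 225 in C1q macrophages and 41.6 in Kupffer cells, *Plin2* at 518 in hepatocytes against 235 in Kupffer cells, and *Lgals3* at 932 in neutrophils against 718. *Lpl* reached 710 in mesenchymal cells, and *Fabp5* 533 in hepatocytes and 302 in endothelial cells. *Gpnmb* stood at 386 in T cells, but 71 of the 112 UMIs lay in 3 of 341 cells, which also carried 22 UMIs of C1q markers. Ungated cells, 3594 in number, kept part of every member, and the macrophage gates together held between 32.3% (*Cd9*) and 53.8% (*Trem2*) of each member's UMIs in 29.7% of all UMIs.

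At 1 day 12 gates held at least 20000 UMIs and were compared, which left out the Arg1/Ccl2 gate with its 11248 UMIs. Among the 12, 5 members were highest outside the macrophage gates. *Gpnmb* gave 1 UMI in all macrophage-gated cells, and in C1q-gated cells it was at 0. By the bound of the exact interval this was at least 90.5-fold lower than in the control C1q gate. With 3 counts put in place of 0 the ratio was 111-fold. *Fabp5* was highest in endothelial cells, at 331 CPM (288 to 378), and was 285 in hepatocytes against 69.3 in Kupffer cells. *Cd9* was highest in cholangiocytes, the bile duct cells, at 385, *Plin2* in hepatocytes, at 291, and *Lgals3* in monocytes, at 731. *Gpnmb* was highest in monocytes too, on 2 UMIs. The Arg1/Ccl2 gate that was left out gave more of 3 of these on 10, 29 and 12 UMIs, with *Cd9* at 889 (426 to 1635), *Lgals3* at 2578 (1727 to 3703) and *Plin2* at 1067 (551 to 1864), so their place outside the macrophage gates depended on the minimum of UMIs. Only *Lpl* (638) and *Trem2* (34.7) were highest in Kupffer cells, and C1q-gated cells were close to them, at 495 and 31.8. C1q-gated cells of that library carried Kupffer markers at 8144 CPM, against 961 in the control C1q gate, so these gates were not separated as they were in the control. Hepatocyte markers stood between 12219 and 20442 CPM in the non-hepatocyte gates compared there, and their part in the *Fabp5* and *Plin2* values was not tested.

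In the library labelled IRE 7 days the members spread over several myeloid gates. *Lgals3* was highest in Arg1/Ccl2 cells, at 5769 CPM (5571 to 5972), followed by C1q macrophages at 4388 and monocytes at 3490. *Plin2* was highest in the same cells, at 2109, with 1547 in neutrophils. *Cd9* was highest in neutrophils, at 1477 (1378 to 1582), against 1009 in Arg1/Ccl2 cells and 189 in Kupffer cells. *Fabp5* was highest in C1q macrophages, at 1756, with 655 in Arg1/Ccl2 cells, and *Lpl* in Kupffer cells, at 1351 (1170 to 1552), with 338 in C1q macrophages. *Gpnmb* and *Trem2* were highest in C1q macrophages, at 368 and 298, with 115 and 149 in Kupffer cells and 117 and 129 in Arg1/Ccl2 cells. Of 8 gates compared, 6 members were highest in a macrophage gate.

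RNA of neutrophils was also counted outside the neutrophil gate at 7 days. Neutrophil markers stood between 13730 and 18786 CPM in every gate compared other than the neutrophils, against 156571 in the neutrophil gate itself. Barcodes under 200 genes carried them at 99705 CPM, 2.29 times the level in cells, and carried *Cd9* at 1340, *Plin2* at 1620 and *Lgals3* at 2205. T cells, taken for comparison although lymphocytes can express these genes, stood at 211 for *Cd9*, 518 for *Plin2* and 1036 for *Lgals3*. The 7-day Kupffer level of *Cd9* lay within the interval of the T cell level and is not read as Kupffer cell expression, and the part of free RNA in the other *Cd9*, *Plin2* and *Lgals3* values was not tested.

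**Figure D2:**
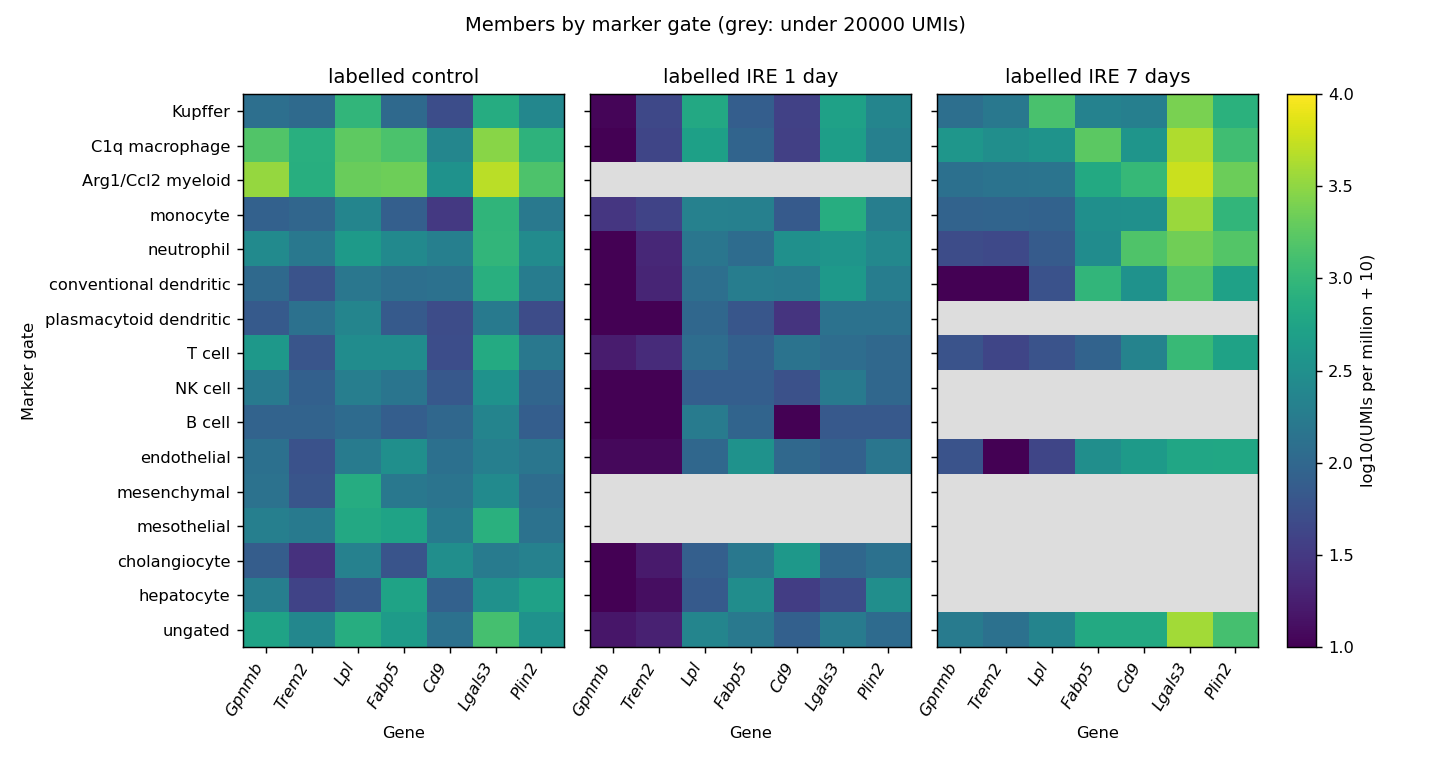
Colour gives log10 of CPM plus 10 for each of the 7 genes (columns) in each marker gate (rows) of the 3 libraries, with grey for gates under 20000 UMIs. In the library labelled control *Gpnmb*, *Trem2* and *Fabp5* stand out in the C1q and Arg1/Ccl2 rows, at 1 day those rows are dark for *Gpnmb* or grey, and at 7 days *Cd9*, *Lgals3* and *Plin2* are bright in the Arg1/Ccl2 and neutrophil rows.

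Within the macrophage-gated cells pooled, all 7 members were lower at 1 day than in the library labelled control. *Gpnmb* stood at 754 CPM in the library labelled control, 0.787 at 1 day and 165 at 7 days, the 1-day ratio to control being 0.00104 on 1 UMI (2.64e-05 to 0.00582). *Trem2* stood at 379, 33.8 and 165, *Lpl* at 1294, 609 and 378, and *Fabp5* at 662, 71.6 and 794. *Fabp5* lay slightly above its control level at 7 days, at a ratio of 1.20 (1.10 to 1.31). *Gpnmb*, *Trem2* and *Lpl* lay below their control levels then, and the remaining members further above theirs. *Cd9* went from 121 to 35.4 and 744, *Lgals3* from 1676 to 516 and 4949, and *Plin2* from 515 to 224 and 1712.

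All 7 members were thus at least 2-fold lower at 1 day, beside 4.68% of the 9557 genes tested, and 0 were higher, beside 10.2%. At 7 days against control, 3 were higher, beside 9.86% of genes, and *Gpnmb*, *Trem2* and *Lpl* were lower, beside 18.8%. At 7 days against 1 day, 6 were higher, beside 11.3%, and 0 lower, beside 22.3%. The 7 members summed were 3.62-fold lower at 1 day than in the control (3.45 to 3.80) and 1.65-fold higher at 7 days (1.60 to 1.70). Gate by gate the 7-day ratio of the sum was 2.37 in Kupffer cells (2.19 to 2.56) and 0.922 in C1q macrophages (0.872 to 0.974). In Arg1/Ccl2 cells it was 0.663 (0.622 to 0.709), so the pooled rise did not hold within the last 2 gates. A single control barcode of 12726 UMIs held 158 of the 246 *Gpnmb* and 147 of the 354 *Lgals3* UMIs of the Arg1/Ccl2 gate. The ratio of that gate is thus not read as a fall. A stricter gate, at a p of 0.001, left 5 members past 2-fold at 1 day, *Lpl* and *Plin2* then lying within 2-fold, and the mean of per-cell values left the same 5.

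Kupffer-gated cells alone gave a smaller 1-day difference. There *Plin2* stood at 235 CPM in the library labelled control and 221 at 1 day, a ratio of 0.943 (0.793 to 1.12), and *Lpl* at 943 and 638. Of the 7 members, *Gpnmb* and *Trem2* were at least 2-fold lower, beside 4.40% of genes, and 0 were higher, beside 9.41%. The thinned share of control Kupffer cells with *Gpnmb*, 1.91%, did not exceed the 3.29% of T and B cells. Neither the 1-day nor the 7-day *Gpnmb* ratio is thus read as a change in Kupffer cells. At 7 days *Cd9*, *Lgals3*, *Plin2* and *Fabp5* were at least 2-fold above the control Kupffer gate, beside 9.68% of genes, and 0 were lower, beside 16.5%. The *Cd9* and *Fabp5* values rested on 28 and 30 UMIs at 7 days, 12 of the latter in 1 cell, and neither is read as a rise in Kupffer cells. That *Cd9* level lay within the T cell interval, as given above, and the thinned share of Kupffer cells with *Fabp5*, 3.55%, lay within the interval of T and B cells (0.194% to 5.66%). *Plin2*, at 811 CPM at 7 days (672 to 969), overlapped the T cell interval (354 to 732) and is not read as a rise either. *Lgals3* went from 718 to 2513, 3.50-fold (3.10 to 3.94). T cells stood at 1036 for it at 7 days (798 to 1324) and barcodes under 200 genes at 2205, and the part of free RNA was not tested. *Gpnmb*, at 116 and 115, gave a ratio of 0.994 (0.565 to 1.64) on 17 UMIs at 7 days.

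In C1q-gated cells the 1-day difference was larger, the summed members lying 7.27-fold lower (6.46 to 8.21) against between 1.41-fold and 1.60-fold in Kupffer-gated cells. The 1-day C1q gate carried Kupffer markers at 8144 CPM, against 961 in the control C1q gate. The 1-day values thus compare unlike sets of cells and are not read as a change within C1q macrophages. All 7 members were at least 2-fold lower at 1 day, beside 10.5% of genes, and 0 were higher, beside 12.0%. At 7 days *Gpnmb*, *Trem2* and *Lpl* were 4.13-fold (3.21 to 5.40), 2.61-fold (1.96 to 3.54) and 5.23-fold (4.03 to 6.92) lower than in the control C1q gate, beside 13.8% of genes at least 2-fold lower. None of the other 4 members reached 2-fold, beside 14.0% of genes that were higher: *Fabp5* was 1.25-fold, *Plin2* 1.38-fold, *Lgals3* 1.52-fold and *Cd9* 1.61-fold higher. *Lpl* thus lay above its control level in 7-day Kupffer cells, 1.43-fold (1.23 to 1.66), and below it in 7-day C1q macrophages.

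In the Arg1/Ccl2 gate, the largest macrophage gate at 7 days, 4 members were at least 2-fold lower than in the control gate, beside 11.8% of genes, and 1 was higher, beside 25.9%. *Gpnmb* was 28.9-fold (21.9 to 38.7), *Lpl* 15.5-fold, *Trem2* 5.74-fold and *Fabp5* 3.31-fold lower, and *Cd9* 3.06-fold higher (2.04 to 4.82). *Lgals3* and *Plin2*, at 1.19-fold and 1.46-fold, did not reach 2-fold. The control side of these ratios is the 54 cells described above. Without each gate's deepest barcode, *Gpnmb* stood at 1464 CPM in the control and 117 at 7 days. *Lpl* then stood at 1464 and 132, *Trem2* at 616 and 130, and *Fabp5* at 1630 and 658. *Cd9* stood at 316 and 1013, *Lgals3* at 3444 and 5782, and *Plin2* at 1115 and 2114. The control gate carried Arg1/Ccl2 markers at 5821 CPM and C1q markers at 4009, against 33304 and 1635 at 7 days. The ratios thus compare unlike sets of cells and are not read as a change within Arg1/Ccl2 cells.

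**Figure D3:**
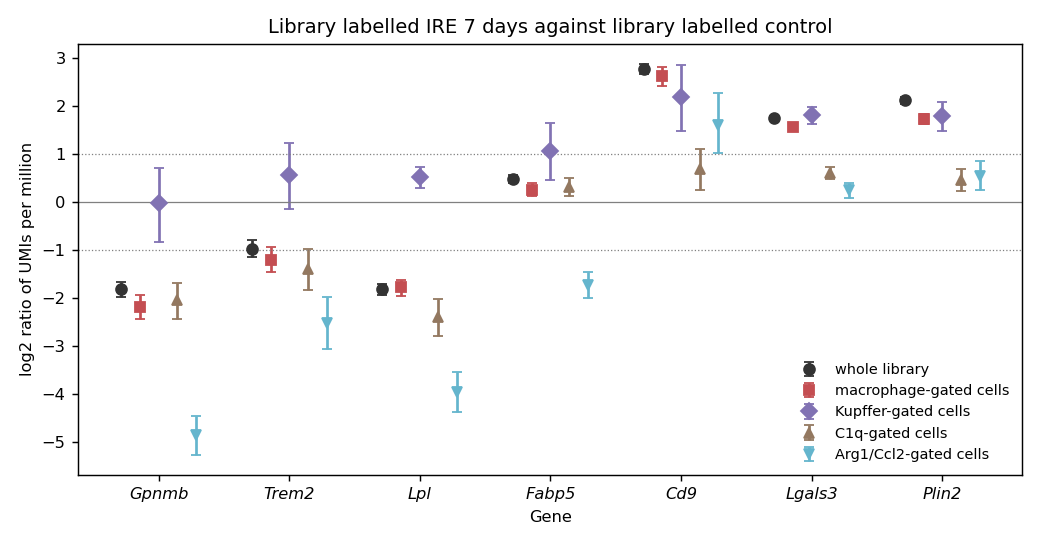
Log2 ratio of CPM in the library labelled IRE 7 days to that labelled control for each gene, in the whole library, all macrophage-gated cells, Kupffer-gated, C1q-gated and Arg1/Ccl2-gated cells, with 95% intervals for counting error and dotted lines at 2-fold. *Lgals3* and *Plin2* lie above 2-fold in the first 3 sets and under it in C1q-gated and Arg1/Ccl2-gated cells. The 7-day Kupffer level of *Cd9* lay within the T cell interval, and that of *Plin2* overlapped it. *Lpl* lies above 0 in Kupffer-gated cells and below the lower line in the rest.

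The same pattern was read cell by cell, with every cell cut at random to 300 of its UMIs so that depth does not set the shares. Among C1q-gated cells labelled control, 21.4% had a *Gpnmb* UMI (206 of 964, 18.8% to 24.1%), against 1.91% of Kupffer-gated cells and 3.29% of T and B cells, which serve as the background. The medians before thinning were 733, 814 and 671 UMIs, and 35.8%, 7.06% and 6.33% of the unthinned cells had a *Gpnmb* UMI. *Trem2* was seen in 19.1% of C1q-gated, 3.08% of Kupffer-gated and 1.10% of T and B cells, and *Fabp5* in 23.2%, 1.84% and 3.07%. The Kupffer shares of *Gpnmb* and *Fabp5* were at or below this background and are not read as expression. *Lpl* was seen in 20.9% of Kupffer-gated and 23.2% of C1q-gated cells against 2.85% of T and B cells. *Lgals3* and *Plin2* also lay above this background in Kupffer-gated cells, at 17.2% against 6.80% and 6.46% against 2.19%.

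At 1 day *Gpnmb* was seen in 0 of 1651 thinned macrophage-gated cells, an exact binomial interval that reaches 0.223%. *Lpl* was still seen in 15.7% and *Lgals3* in 15.0% of Kupffer-gated cells, against 4.13% and 3.24% of T and B cells of that library. At 7 days *Lgals3* was seen in 77.6% of Arg1/Ccl2 cells, 62.0% of C1q macrophages and 45.1% of neutrophils, against 25.6% of T and B cells. *Plin2* was seen in 44.3%, 24.5% and 36.8% against 13.6%, and *Cd9* in 25.1%, 10.1% and 32.9% against 7.20%. The C1q share of *Cd9* (6.60% to 14.7%) overlapped the interval of that background (3.35% to 13.2%), as did the C1q share of *Plin2* (19.1% to 30.5% against 8.13% to 20.9%). The background was thus higher at 7 days than in the control, where *Lgals3* was seen in 6.80% of T and B cells.

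**Figure D4:**
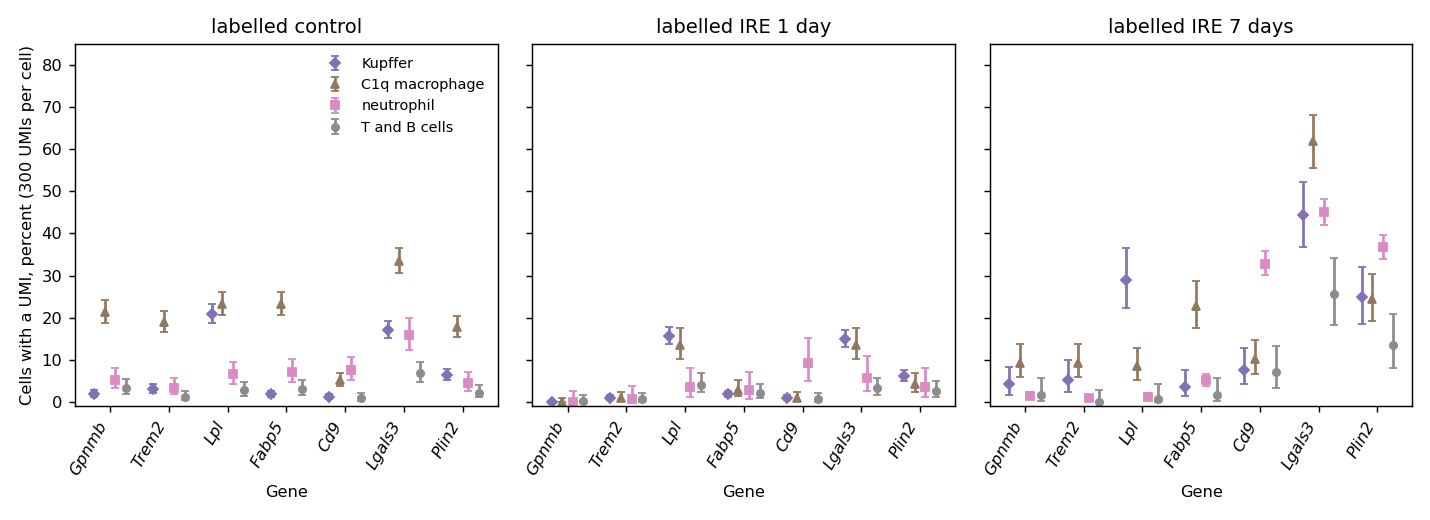
Percent of cells with a UMI of each gene after thinning to 300 UMIs per cell, for Kupffer cells, C1q macrophages, neutrophils and T and B cells of the 3 libraries, with exact binomial 95% intervals. C1q macrophages of the library labelled control stand above the other classes for *Gpnmb*, *Trem2* and *Fabp5*, and neutrophils of the library labelled IRE 7 days stand above them for *Cd9*, at 32.9%.

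Members were also counted together in single cells. Of the thinned C1q-gated cells labelled control, 22.4% (216 of 964) had UMIs of at least 3 members, against 1.47% of Kupffer-gated and 1.10% of T and B cells. Over all macrophage-gated cells the share was 10.2% in the library labelled control and 0.303% at 1 day. Of 1-day C1q-gated cells it was 0.845%. At 7 days it was 17.3% of C1q-gated cells, 19.2% of Arg1/Ccl2 cells and 9.03% of neutrophils, against 2.40% of T and B cells. What the cells held differed, since *Gpnmb* was seen in 2.61% of the 7-day Arg1/Ccl2 cells, within the interval of the T and B cell share of 1.60% (0.194% to 5.66%).

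Pairs of members were seen together more often than their separate shares would give in the control library. In its macrophage-gated cells all 21 pairs lay above 1, the highest being *Gpnmb* with *Fabp5* at 3.91 times (92 cells against 23.5 expected) and *Gpnmb* with *Trem2* at 3.12 times. Within the C1q gate, where cells are more alike, 20 of 21 pairs lay above 1, with a median of 1.67, and *Cd9* with *Plin2* lay at 0.902. At 7 days 10 of 18 pairs with at least 5 cells expected lay above 1 in macrophage-gated cells. *Gpnmb* with *Fabp5* stood at 3.04 (20 cells against 6.57 expected) and *Trem2* with *Cd9* at 0.473. At 1 day 3 pairs could be compared and 2 lay above 1. Cells of 1 library are not replicates, and pooling gates with different levels raises such ratios.

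Across 35 pairs of gate and library with at least 20000 UMIs, *Gpnmb* and *Trem2* were the members most alike, with a Pearson r of 0.87 on log2 of CPM plus 10, followed by *Lgals3* and *Plin2* at 0.80, while *Lpl* and *Cd9* gave -0.10. Of all other genes with at least 200 UMIs, *Gpnmb* was most like *Mmp12* (r 0.91), which encodes macrophage elastase, *Syngr1* and *Atp6v0d2*, a subunit of the lysosomal proton pump. *Trem2* was most like *Mmp12* (0.82), *Syngr1* and *Ms4a7*, itself a C1q gate marker. *Lpl* was nearest to *Hexa*, *BC005537* and *Lipa*, *Hexa* and *Lipa* encoding lysosomal hydrolases, and *Fabp5* to *Lyz1*, *Pid1* and *Rai14*, with r no higher than 0.66. *Cd9* was nearest to *Egln3*, *Upp1* and *C5ar1* (0.76 to 0.77), *Lgals3* to *Ccl9*, *Bcl2a1b* and *Itgam* (0.84 to 0.86), and *Plin2* to *Gm10116*, the ferritin light chain gene *Ftl1* and *Adam8* (0.87 to 0.88). The points share libraries, depth and free RNA, and reads of *Gm10116*, *Lyz1* and *Bcl2a1b* may be shared with near-identical genes.

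Other genes of the same programme were read in the macrophage-gated cells, where the percentages of all genes given for those cells are the background. The gates were pooled, with 1388 Kupffer and 54 Arg1/Ccl2 cells in the control against 189 and 927 at 7 days. The list genes were not read gate by gate, so their ratios are not read as changes within a cell class. Of 24 further genes of lipid-associated macrophage signatures that were tested, 14 were at least 2-fold lower and 0 higher at 1 day against control, with a median log2 ratio of -1.20 against 0.05 for all genes. At 7 days against control 10 were higher and 3 lower. *Spp1*, which encodes the secreted matricellular protein osteopontin, was 6.89-fold higher (6.55 to 7.24), and the protease inhibitor gene *Cstb* 4.54-fold, the ferritin heavy chain gene *Fth1* 3.69-fold and the intermediate filament gene *Vim* 2.46-fold. The lower ones were the genes most like *Gpnmb*, *Mmp12* at 2.01-fold and *Atp6v0d2* at 11.2-fold (6.15 to 22.6), with *Creg1* at 2.28-fold.

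Genes of lipid uptake, storage, breakdown and export did not move one way. Of 25 tested, 5 were higher and 2 lower at 1 day against control, beside 10.2% and 4.68% of all genes. At 7 days 4 were higher and 3 lower, beside 9.86% and 18.8%. *Hilpda*, whose product inhibits the droplet lipase and sits on the same droplets as Plin2, was 23.2-fold higher at 7 days (18.6 to 29.3), *Apoc2*, the cofactor of Lpl, 4.44-fold, and the triglyceride synthesis genes *Dgat1* and *Dgat2* 6.30-fold and 16.3-fold, the last on 5 control UMIs. *Apoe* was 3.47-fold (3.38 to 3.56) and *Apoc1* 4.07-fold lower, both apolipoproteins of cholesterol transport. *Gpihbp1*, the endothelial anchor of Lpl, was 6.38-fold lower on 9 UMIs. Endothelial markers made up 0.219% of UMIs in the control library and 0.0387% at 7 days, and the part of free RNA in the *Gpihbp1* value was not tested.

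Of 14 genes of Trem2 and Gpnmb signalling and regulation, 0 were higher and 1 lower at 1 day, beside 10.2% and 4.68% of all genes. At 7 days against control 2 were higher and 3 lower, beside 9.86% and 18.8%. With counts this small the list is not read as a group that moved. The transcription factor genes *Tfec* (2.01-fold) and *Bhlhe40* (6.63-fold) were higher. *Nr1h3*, which encodes the oxysterol receptor LXR alpha, was 2.75-fold lower (2.20 to 3.46), its partner *Rxra* 4.37-fold lower, and *Bhlhe41* had 22 UMIs in the control and 0 at 7 days. Of 22 relatives of the members by protein family, 3 were higher and 4 lower at 1 day, and 8 were higher and 4 lower at 7 days, beside the same shares of all genes. The galectin gene *Lgals1* was 2.53-fold, the tetraspanin gene *Cd53* 3.75-fold, *Lgals9* 2.12-fold and *Cd300lf* 4.42-fold higher, and *Cd81*, *Fabp4*, *Tspan4* and *Treml4* were 2.06-fold to 2.72-fold lower. Over the pooled cells members of 1 family thus differed. By their intervals *Fabp4* lay between 1.88-fold and 3.40-fold below control and *Fabp5* between 1.10-fold and 1.31-fold above it. Gate by gate *Fabp5* was 2.11-fold higher in Kupffer-gated, 1.25-fold higher in C1q-gated and 3.31-fold lower in Arg1/Ccl2-gated cells, and *Fabp4* was not read by gate.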

How the data were processed

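The authors deposited 3 Drop-seq count matrices, UMIs per gene and cell barcode, with no normalization, beside per-barcode summaries that give each barcode's genes and UMIs. Per the file headers, UMIs within an edit distance of 1 were merged and reads were counted on the sense strand at a mapping quality of at least 10. The submitters' processing notes name STAR 2.5.2a and the human build hg19, although gene symbols are mouse ones, so no coordinate was taken from the files. The headers name a minimum of 200 genes, yet barcodes with as few as 11 were present. These were left out of cells.

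Counts were summed by library and by marker gate and divided by all UMIs of the same cells, per 1000000. Gates required at least 2 markers and a Poisson tail under 0.01, or hepatocyte markers of at least 10% of UMIs. No doublet caller was run. Macrophage-gated barcodes that also passed a non-macrophage gate, between 5.04% and 12.1% of them, were left out as an alternative, and between 227 and 339 had a tail above 0.001. The study's methods estimate cells per tagmented sample but not how many such samples made a library, so barcodes and loaded cells cannot be matched. Intervals were exact Poisson, exact binomial (Clopper-Pearson) or, for ratios, conditional binomial, all at 95%. Depth was 10032574, 8563287 and 4580021 UMIs. A gene was compared with at least 20 UMIs summed over both libraries. The scripts, in Python 3.11.15 with scipy 1.17.1, were tested on simulated data. The 7 members, the gene lists and the markers were chosen with earlier results of these data known. Named list genes were the 4 with the highest UMI sum per list and direction at 7 days against control, and the likest genes the 3 with the highest r.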

Additional observations from a re-analysis of the deposited data

Results flagged for a closer look

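Barcodes with under 200 genes, given above only beside the 7-day levels of cells, carried some members above the level in the same barcodes of the library labelled control. At 1 day this held for *Fabp5*, at 110 CPM against 87.2, a ratio of 1.26 (1.04 to 1.53). At 7 days it held for *Fabp5* at 254, *Cd9* at 1340, *Lgals3* at 2205 and *Plin2* at 1620, against 87.2, 58.5, 300.2 and 110 in the library labelled control. *Cd9* and *Plin2* were there 1.76 and 1.19 times their level in cells of the same library. *Gpnmb*, *Trem2* and *Lpl* did not lie above the control level in these barcodes.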

How the results depend on the processing

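No direction of a called value reversed. The summed members' ratio in the order 1 day to control, 7 days to control and 7 days to 1 day, which was 0.274, 2.06 and 7.52 in whole libraries, was 0.209, 1.43 and 6.84 over barcodes of at least 500 genes, 0.288, 2.26 and 7.85 over every barcode, 0.292, 1.70 and 5.84 per UMI neither mitochondrial nor of hepatocyte markers, and 0.246, 1.57 and 6.37 in cells of at most 20% mitochondrial UMIs. As a mean of per-cell values the first 2 ratios were 0.355 and 2.69. In macrophage-gated cells they were 0.242, 1.29 and 5.34 with at least 500 genes, and with the other denominator 7 days to control was 1.47 and 7 days to 1 day 5.18. The ratios to control at 1 day and 7 days were 0.260 and 1.52 at 20% mitochondrial UMIs, 0.355 and 2.19 as per-cell means, and, by settings chosen after seeing the data, 0.327 and 1.89 at a gate p of 0.001, 0.250 and 1.51 at 0.05, and 0.290 and 1.74 without the deepest barcode of each gate. Without shared barcodes the 7-day ratio was 1.70. At 3-fold, 3 members were past it in whole libraries at 1 day. With at least 3 markers per gate, 1 member was highest in a macrophage gate at 1 day and 34.0% of those cells had a member's UMI. That share of macrophage-gated cells, 51.4%, 31.7% and 87.0% in the order control, 1 day and 7 days, was 67.5%, 50.4% and 95.03% at 500 UMIs and 76.0%, 57.4% and 94.9% unthinned. The cause of these shifts was not tested. The other 126 summary values stayed within the spread or count limit set for them, as did 273 values of single genes, while 124 moved. *Trem2* at 7 days passed 2-fold below control in whole libraries under 3 settings, at -1.02 to -1.30 on the log2 scale.

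With 1 library per group no library was left out and no test was run. No paired analysis was possible because each group had 1 library. Group, library and liver pool cannot be told apart. The sham animals were killed at 1 day, so the 7-day ratios to control also differ in time since surgery. *Gpnmb* at 1 day rests on 19 UMIs, so its ratios there are known only within their wide intervals.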
